A study of Mus musculus with 10 samples.

Results

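The Ighv1 family, also called J558, is the largest group of variable (V) segments of the mouse immunoglobulin heavy chain locus. Its members were taken as all genes of the deposited count table whose identifier begins with Ighv1-. This gave 92 of the 183 heavy chain V segments (Ighv) and of the 46959 genes in the table. RNA was sequenced from 10 mouse preparations, 6 of cultured spleen cells and 4 of cells from the femur, in a series on histone deacetylase (HDAC) inhibitors and heavy chain transcription. The splenic cells were CD43-negative splenocytes cultured for 2 days with LPS (lipopolysaccharide) at 5 µg/ml, which activates B cells. They came from wild-type (WT) mice given LPS together with SAHA at 200 ng/ml, which inhibits HDACs and was added as the culture began (n = 2), from KOKI mice (n = 2) and from WT mice given LPS alone (n = 2). The femoral cells were not cultured and were pools of 3 mice each, all without RAG2, the protein needed to rearrange antigen receptor genes. They were 1 pool of KOKI mice lacking RAG2 and gamma c, 1 pool of KOKI mice lacking RAG2 alone, and 2 control pools lacking RAG2 and gamma c, a receptor chain shared by several interleukins. In the KOKI pool that keeps gamma c, that difference and KOKI cannot be told apart.

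The labels do not spell out KOKI. They give the WT mice as Black-6 and name no strain for the KOKI mice, so the KOKI alleles and the strain background cannot be told apart. For the KOKI cultures, the titles and the design text speak of LPS alone, but the treatment field also lists SAHA, and they are therefore set beside both kinds of WT culture. Names of the SAHA libraries hold "D3", against 2 days in the protocol. No label ties splenic replicates to separate animals, so a p-value here measures library-to-library spread, which may be technical. Only the KOKI replicates can be seen to come from different animals, by the sex-linked counts given below.

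Each B cell joins 1 V segment to a D and a J segment on a heavy chain allele, and the promoter of the joined V segment then drives the heavy chain messenger RNA. The V segments lie in a long array upstream of the D segments, and the Ighv1 family fills most of its D-distal part, mixed with segments of smaller families. Locus contraction, in which Pax5, Yy1, Ctcf and cohesin take part, brings the distal V segments near the D and J segments in progenitor B cells. Unrearranged V segments are also transcribed at low levels in early B cell development. In a mature B cell culture, counts on a V segment therefore reflect how many cells carry it joined and how much heavy chain RNA each cell makes. They also depend on how well the reads match the reference genome. As no label names the strain of the KOKI mice, the part of this match in their counts was not tested. In bulk RNA, fewer cells of a kind and less RNA per cell cannot be told apart.

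All 92 members lie on chromosome 12 between positions 114351705 and 116010093 (mm10, which is GRCm38), from 921.9 to 2579.8 kb upstream of Ighj1. GENCODE M21 annotates 53 as functional V genes and 39 as pseudogenes, while RefSeq calls 60 functional and 32 pseudogenes. Ighv1-1, a pseudogene, is nearest to the D segments, and Ighv1-86, a pseudogene in GENCODE, is farthest from them. The counted exons are 291 to 644 bases long. A median of 24.2% of a member's 50-base stretches also occur exactly in another Ighv segment, and 14 members are at least 98% identical to another over their V exon. The handling of reads that match several places is not stated in any source at hand, so counts of single members, above all of near-identical ones, are uncertain.

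The sequences of 5 members on which the results turn are shown from the GENCODE M21 transcripts on GRCm38, which run 5′ to 3′ along the reverse strand, as stretches of 300 bases. The first pair are the leading members of the WT and of the KOKI cultures, Ighv1-26 (chr12:114788372-114788805) and Ighv1-9 (chr12:114583569-114584002), both functional V genes made of a leader exon and a V exon. They differ at 56 of 351 aligned bases (84.0% identity), and capitals mark the bases that differ among the last 300, which hold nearly the whole V exon.
Ighv1-26: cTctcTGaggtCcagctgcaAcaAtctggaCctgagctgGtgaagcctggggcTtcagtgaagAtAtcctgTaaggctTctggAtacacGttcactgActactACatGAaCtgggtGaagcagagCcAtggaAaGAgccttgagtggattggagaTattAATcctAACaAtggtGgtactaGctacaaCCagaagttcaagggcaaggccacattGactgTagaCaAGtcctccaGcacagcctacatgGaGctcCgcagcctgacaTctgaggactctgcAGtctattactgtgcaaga
Ighv1-9: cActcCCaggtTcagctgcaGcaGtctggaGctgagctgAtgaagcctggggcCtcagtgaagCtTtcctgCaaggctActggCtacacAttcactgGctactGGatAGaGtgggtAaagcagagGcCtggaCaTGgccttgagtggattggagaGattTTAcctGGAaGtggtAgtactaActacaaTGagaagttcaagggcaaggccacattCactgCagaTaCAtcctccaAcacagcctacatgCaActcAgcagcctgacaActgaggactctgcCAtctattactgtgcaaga
The second pair are pseudogenes whose counts separated the femoral pools, Ighv1-41 (chr12:114932371-114932782) and Ighv1-29 (chr12:114812321-114812745). They differ at 16 of 321 aligned bases, and in their last 300 bases capitals mark mismatches and the bases that 1 of the pair has and the other lacks.
Ighv1-41: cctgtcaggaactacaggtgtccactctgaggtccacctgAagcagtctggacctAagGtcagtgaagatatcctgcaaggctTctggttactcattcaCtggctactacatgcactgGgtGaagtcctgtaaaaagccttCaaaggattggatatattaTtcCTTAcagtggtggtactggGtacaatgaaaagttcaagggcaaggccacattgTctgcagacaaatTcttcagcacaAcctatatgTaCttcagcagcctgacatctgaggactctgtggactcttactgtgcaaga
Ighv1-29: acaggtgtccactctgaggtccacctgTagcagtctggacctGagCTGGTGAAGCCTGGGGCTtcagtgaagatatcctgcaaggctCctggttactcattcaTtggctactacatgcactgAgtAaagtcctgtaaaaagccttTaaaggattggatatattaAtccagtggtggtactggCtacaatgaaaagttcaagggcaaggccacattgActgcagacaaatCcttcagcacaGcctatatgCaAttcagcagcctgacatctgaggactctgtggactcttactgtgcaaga
Ighv1-14 (chr12:114646572-114647056) was the only member called higher in the KOKI than in the WT LPS cultures in the main edgeR fit. It is a pseudogene in GENCODE and a V segment in RefSeq. Its first 300 bases are shown from its start codon, in capitals, and its first in-frame stop, also in capitals, is codon 5.
Ighv1-14: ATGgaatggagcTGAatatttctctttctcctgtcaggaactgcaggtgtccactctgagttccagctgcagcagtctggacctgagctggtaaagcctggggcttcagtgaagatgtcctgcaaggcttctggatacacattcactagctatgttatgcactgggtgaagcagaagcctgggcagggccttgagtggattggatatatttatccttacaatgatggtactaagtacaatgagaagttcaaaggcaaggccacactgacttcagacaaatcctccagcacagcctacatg

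Total counts ran from 18614742 to 29314068 per library. The B cell marker Ms4a1 was at 858 to 1030 counts per 1000000 counted reads (CPM) in the splenic cultures, Cd79a at 274 to 425 CPM, and Cd79b, Cd22 and Blk at 74.1 to 679 CPM. In the femoral pools labelled B cells Ms4a1 was at 0 to 0.0946 CPM, Cd79a at 0.0434 to 0.331 CPM, and Cd79b, Cd22 and Blk at 2.63 to 10.2 CPM, while 6 neutrophil markers summed to 12200 to 19400 CPM and 5 erythroid markers to 4520 to 6310 CPM. Early B cell markers went the other way: Rag1, Rag2, Dntt, Igll1, Vpreb1 and Il7r summed to 66.6 to 88.1 CPM in the femoral pools and to 0.92 to 4.15 CPM in the splenic cultures. Most of this was Dntt, which adds bases at V(D)J joints, at 40.2 to 58.1 CPM, and Il7r, the interleukin 7 receptor, at 14.6 to 20.6 CPM in the femur. Rag2 itself was at 6.93 to 9.32 CPM there, which checks nothing, since the labels do not give the deleted part. As the neutrophil and erythroid markers far exceed those of B cells of either stage, the femoral pools are called femoral cells here. Among the splenic libraries, SAHA replicate 2 had counts on 451 of 1292 olfactory receptor genes, against 126 in SAHA replicate 1 and fewer than these in WT LPS cultures, 46 and 47. KOKI replicate 2 held 8499 counts of Xist, which is expressed from the inactive X chromosome of females, and the 9 other libraries held at most 9. Of Ddx3y, a gene of the Y chromosome, it held 20 counts, against 3610 in KOKI replicate 1 and 1853 to 5868 in the 9 other libraries. The KOKI replicates thus differ in sex.

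In the WT cultures with SAHA no member passed the threshold in the fit without pairing, 5 passed, lower, with the replicate number as a block, and the summed level of the family was somewhat below that with LPS alone. Ighv1 segments summed to 373 and 418 CPM with SAHA, against 456 and 489 CPM with LPS alone. Both SAHA libraries lay under both LPS libraries, with means of 396 ± 31.8 and 472 ± 23.0 CPM (SD, n = 2 each). The other Ighv families were lower by a like amount, at 313 and 327 CPM with SAHA and 379 and 394 CPM with LPS alone. The share of Ighv1 in all Ighv counts was accordingly 54.4% and 56.1% with SAHA, against 54.6% and 55.3% with LPS alone, and these ranges overlap.

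Of the 92 members, 52 passed the filter on low counts in the splenic fit. With SAHA over LPS alone, 0 of them passed edgeR's quasi-likelihood test at a Benjamini-Hochberg adjusted p under 0.05, and 4.64% of all 15342 genes tested did, 0.952% higher and 3.69% lower. At an unadjusted p under 0.05 there were 6 members, and DESeq2 also called 0. The titles number the WT cultures 1 and 2 under both treatments, and the deviations of same-numbered libraries correlated at 0.221, but no label says that a number marks 1 animal. With that number as a block, 5 of 49 members fell (10.2%), Ighv1-53, Ighv1-55, Ighv1-64, Ighv1-75 and Ighv1-82, with log2 fold changes of -0.70 to -0.49 and edgeR adjusted p of 0.0113 to 0.0428. This share is below that of all genes in the blocked fit, of which 14.5% fell and 8.29% rose. The fitted log2 fold change was negative for 42 and positive for 10, with a median of -0.34 beside 0.02 over all genes, but scaled to the summed Ighv counts 28 were positive and the median was 0.01. In 24 of the 52, both SAHA libraries lay below both LPS libraries (46.2%), and in 5 above (9.62%). Over all genes tested these shares were 19.8% lower and 30.9% higher.

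The most abundant member, Ighv1-26, had 56.1 and 56.9 CPM with SAHA, against 65.0 and 71.6 CPM with LPS alone. The groups did not overlap, and the log2 fold change was -0.36 ± 0.19 (SE, edgeR adjusted p = 0.274). Ighv1-82, a functional member near the distal end of the array, had 21.8 CPM in each SAHA library and 29.0 and 31.5 CPM with LPS alone (log2 fold change -0.56 ± 0.18, edgeR adjusted p = 0.102). Ighv1-9 did not separate the groups, with 21.8 and 20 CPM with SAHA and 19.6 and 22.1 CPM with LPS alone. The largest negative fold changes belonged to members of low count, Ighv1-37 with 0 and 4 counts with SAHA and 17 and 10 with LPS alone, and Ighv1-2, a pseudogene, with 14 and 16 against 45 and 73. The largest positive ones, of Ighv1-23, Ighv1-49 and Ighv1-20, also rested on few counts, as for Ighv1-49 with 13 and 21 with SAHA and 11 and 15 with LPS alone.

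**Figure D1:**
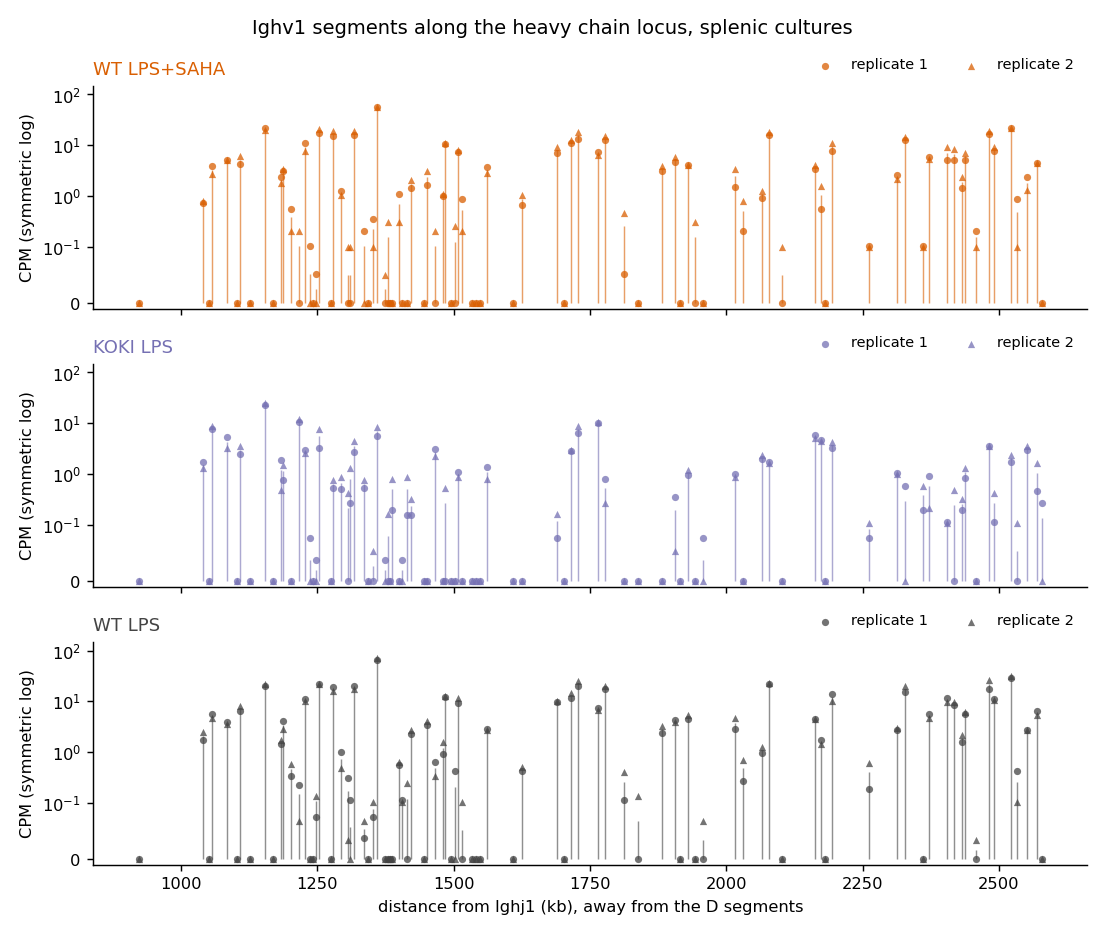
Level of each of the 92 Ighv1 members in the splenic cultures, in CPM on a symmetric log axis, against its distance from Ighj1 in kb. Circles and triangles are replicates 1 and 2 and lines reach to their mean. The SAHA and LPS panels of the WT cultures show the same members high and low, while the KOKI panel has gaps where the WT panels have members above 1 CPM.

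In the KOKI cultures the summed level of the family was 29.5% of that in WT LPS cultures, while the sum of the other heavy chain V segments was not lower. Ighv1 segments summed to 130 and 149 CPM in KOKI, against 456 and 489 CPM in WT LPS cultures, a log2 ratio of -1.76 between the means of 139 ± 13.2 and 472 ± 23.0 CPM (SD, n = 2 each). The groups lie far apart relative to the spread between replicates. The other 91 Ighv segments together were at 400 and 455 CPM in KOKI, against 379 and 394 CPM in WT LPS cultures. That sum rests in part on the pseudogene Ighv3-2, with 823 and 838 counts in KOKI, against 21 and 9 in WT LPS cultures. The share of Ighv1 in all Ighv counts was 24.5% (exact binomial 95% interval 23.8 to 25.2) and 24.6% (23.8 to 25.4) in KOKI, against 54.6% (54.0 to 55.3) and 55.3% (54.7 to 56.0) in WT LPS cultures. These intervals cover counting error only.

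Other heavy and light chain transcripts and the markers of other cells were measured beside this. Ighm, the mu constant region, was at 3030 and 3110 CPM in KOKI, against 2790 and 3170 CPM in WT LPS cultures, which overlap. Kappa V segments (Igkv) summed to 1930 and 2280 CPM in KOKI, against 884 and 923 CPM in WT LPS cultures. The plasmablast markers Prdm1, Xbp1, Jchain, Sdc1 and Irf4 summed to 1030 to 1150 CPM in KOKI, against 481 to 510 CPM in WT LPS cultures and 324 to 401 CPM with SAHA. Markers of T cells summed to 0.483 to 0.766 CPM in KOKI, against 2.29 to 2.68 CPM in WT LPS cultures, and those of macrophages to 13.2 to 13.4 CPM in KOKI, against 23.6 to 25.2 CPM in WT LPS cultures. The part of these differences in the V segment result was not tested.

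Of the 52 members tested in KOKI over WT LPS, 29 fell and 1, Ighv1-14, rose (edgeR adjusted p under 0.05, 57.7% of those tested). Over all genes tested 4.08% were called, 2.25% higher and 1.83% lower. The median log2 fold change of the members was -2.46, beside -0.02 over all genes. In 38 members both KOKI libraries lay below both WT LPS libraries, in 10 above, and in 4 the groups overlapped, whereas over all genes 22.1% lay below and 25.0% above. Scaled to the summed Ighv counts, where the median of all genes shifts to 0.61, 34 members were lower (65.4%) and 9 higher (17.3%), and 1.56% of all genes were lower and 42.0% higher. With KOKI replicate 2 left out, the median log2 fold change of the members was -2.81, beside -0.04 over all genes.

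Ighv1-26 had 146 and 157 counts (5.59 and 8.43 CPM) in KOKI, against 1724 and 2092 counts (65.0 and 71.6 CPM) in WT LPS cultures, which it led. It fell by 3.32 on the log2 scale (SE 0.21, edgeR adjusted p = 0.000218). Ighv1-82 fell to 1.76 and 2.36 CPM in KOKI, against 29.0 and 31.5 CPM in WT LPS cultures, a log2 fold change of -3.91 ± 0.21 (SE, edgeR adjusted p = 9.3e-05). Of the 10 members with the highest mean level over the splenic cultures, 9 fell: besides these Ighv1-18, Ighv1-19, Ighv1-22, Ighv1-53, Ighv1-55, Ighv1-64 and Ighv1-80. Among them Ighv1-19 had 14 and 14 counts in KOKI, against 500 and 467 in WT LPS cultures, and Ighv1-55 had 21 and 5 against 467 and 597. Ighv1-53 kept the most of its level, with 6.28 and 8.92 CPM in KOKI, against 20.2 and 25.0 CPM in WT LPS cultures (log2 fold change -1.61 ± 0.21, edgeR adjusted p = 0.006).

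Several functional members with sizeable WT levels were at or near 0 in KOKI. Ighv1-36 (chr12:114879888-114880321) had 0 and 0 counts in KOKI and 91 and 117 in WT LPS cultures, at least 55.6-fold lower when 3 counts are allowed over the group. Ighv1-58 (chr12:115312166-115312599) had 0 and 0 counts in KOKI and 64 and 94 in WT LPS cultures, at least 42.2-fold lower. The pseudogene Ighv1-38 had 0 and 0 counts in KOKI and 24 and 45 in WT LPS cultures, at least 18.4-fold lower. All 3 passed the test, and SAHA left each of them detected, with 32 and 61 counts of Ighv1-36, 61 and 76 of Ighv1-58 and 20 and 22 of Ighv1-38.

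Ighv1-50 had 2 and 3 counts in KOKI, against 261 and 291 in WT LPS cultures, and fell by 6.42 on the log2 scale (SE 0.39, edgeR adjusted p = 0.00017). Ighv1-75 had 3 and 2 counts in KOKI, against 304 and 286, and fell by 6.53 (SE 0.42). In each of these the KOKI libraries agreed within a few counts and lay far under the WT libraries. Ighv1-39, Ighv1-72, Ighv1-76 and Ighv1-81 had 0 to 15 counts in a KOKI library and 223 to 578 in a WT LPS library, with log2 fold changes of -5.71, -5.75, -5.41 and -5.41. Ighv1-72 shares 92.5% of its 50-base stretches with other segments, so its count is among the less certain ones, whereas Ighv1-39 shares 7.3%. Altogether 48 members had at least 10 counts in both WT LPS libraries. Of these, 31 also had at least 10 in both KOKI libraries, and 12 had under 10 in both, of which 5 (Ighv1-31, Ighv1-36, Ighv1-38, Ighv1-49 and Ighv1-58) had none.

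Ighv1-14 had 282 and 226 counts in KOKI (10.8 and 12.1 CPM), against 6 and 2 in WT LPS cultures and 0 and 4 with SAHA. It rose by 6.23 on the log2 scale (SE 0.66, edgeR adjusted p = 0.00211). Its nearest relative, Ighv1-83, is 90.8% identical over the V exon, and 13.3% of its 50-base stretches occur in other segments. Ighv1-23 had 14 and 14 counts in KOKI and 1 and 2 in WT LPS cultures, and Ighv1-37 had 80 and 42 in KOKI and 17 and 10 in WT LPS cultures. Their groups did not overlap, but neither passed the test (edgeR adjusted p = 0.222 and 0.163).

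Ighv1-9, the leading member of the KOKI cultures, did not pass the test, with 23.3 and 25.1 CPM in KOKI, against 19.6 and 22.1 CPM in WT LPS cultures (log2 fold change 0.19 ± 0.17, edgeR adjusted p = 0.651). Levels of members near it in the array, Ighv1-4 and Ighv1-5, did not pass the test either, with log2 fold changes of 0.68 ± 0.31 and 0.16 ± 0.33 (SE). Ighv1-7, Ighv1-11 and Ighv1-12 lie closer to it and had negative values that did not pass, -1.28 ± 0.30, -0.40 ± 0.66 and -1.64 ± 0.46 (SE). For Ighv1-7 and Ighv1-12 both KOKI libraries lay below both WT LPS libraries. Members with a positive, uncalled value also lay farther from the D segments, in the middle and distal of 3 parts. Ighv1-67 had 4.64 and 4.51 CPM in KOKI, against 1.73 and 1.47 CPM in WT LPS cultures, and Ighv1-54 had 10.2 and 10.4 against 7.39 and 6.67 CPM. Ighv1-84 was at 2.95 and 3.60 CPM in KOKI, against 2.72 and 2.77 CPM in WT LPS cultures, among neighbours that fell.

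**Figure D2:**
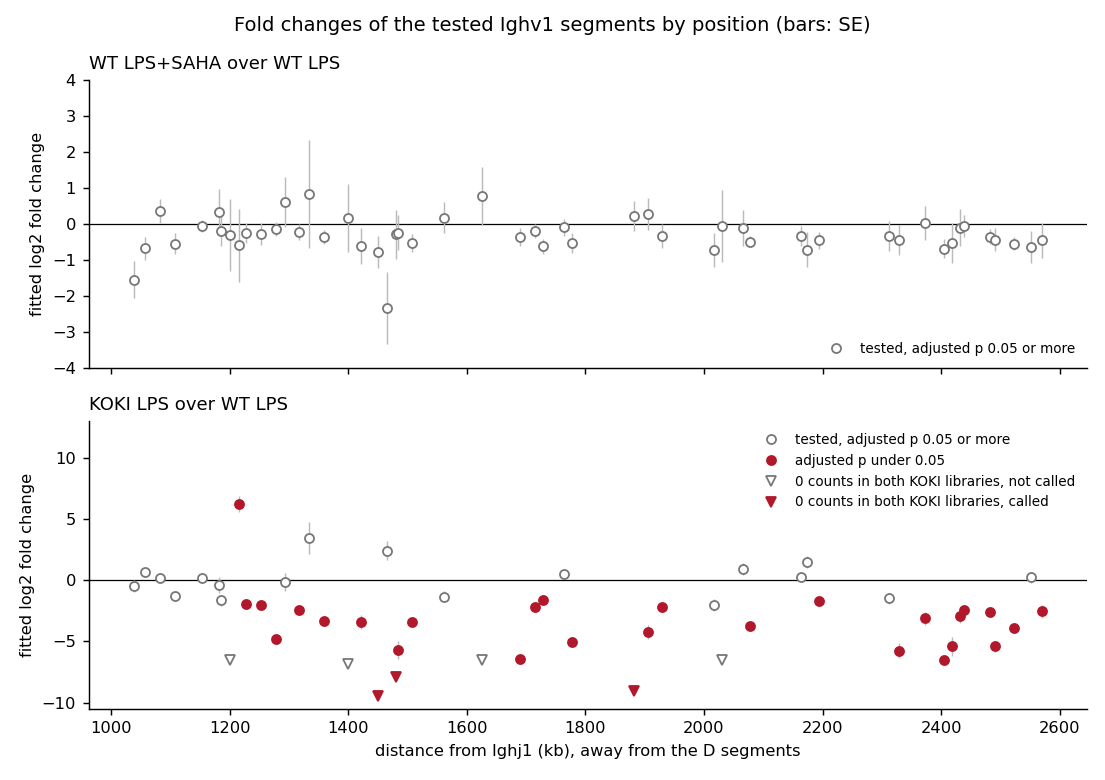
Fitted log2 fold change of the 52 tested Ighv1 members against distance from Ighj1 in kb, for WT LPS+SAHA over WT LPS (top) and KOKI LPS over WT LPS (bottom), with bars of 1 SE. Filled points passed the test (edgeR adjusted p under 0.05), and triangles mark members with 0 counts in both KOKI libraries, whose fitted value is no bound. No member is filled in the top panel; in the bottom panel 29 filled points lie below the line and 1, Ighv1-14, above it.

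Along the array the difference between KOKI and WT LPS cultures was uneven. The members were split by distance into 5 blocks. In block 1, the 18 members nearest to the D segments (Ighv1-1 to Ighv1-17, 921.9 to 1246.9 kb from Ighj1), the summed level was 57.3 and 58.8 CPM in KOKI, against 54.5 and 56.2 CPM in WT LPS cultures. In block 2, the next 18 (Ighv1-18 to Ighv1-33, 1252.8 to 1413.8 kb), it was 13.8 and 26.6 CPM in KOKI, against 128 and 129 CPM. The log2 ratios of the means were 0.07 in block 1 and -2.67 in block 2. The near equality in block 1 rests in part on Ighv1-14. Without it block 1 was at 46.5 and 46.6 CPM in KOKI, against 54.2 and 56.1 CPM in WT LPS cultures, a log2 ratio of -0.25.

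The 3 blocks farther out had log2 ratios of -2.78, -1.45 and -2.91, so the difference did not grow steadily with distance. With the most abundant member of each block and library left out, block 1 was at 34.0 and 33.7 CPM in KOKI, against 34.9 and 34.1 CPM in WT LPS cultures, and block 2 at 8.20 and 18.2 against 63.3 and 57.4 CPM. Ighv1-14 is still counted in that sum for block 1. The median log2 fold changes of the tested members were -0.44, -2.44, -4.56, -2.14 and -2.89 from block 1 to block 5. With members at 0 in both KOKI libraries set to their bound, the median of block 3 was -3.41 and the others did not change. Of the members tested, 1 of 10 fell in block 1, 4 of 7 in block 2, 7 of 10 in block 3, 6 of 12 in block 4 and 11 of 13 in block 5. Block 1 also holds Ighv1-14, the member that rose. Member by member, Spearman's rho between log2 fold change and distance was -0.245 over 52 members, which share libraries and, in part, sequence. With 3 parts in place of 5 the log2 ratios were -1.25, -1.98 and -2.39 from proximal to distal.

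With SAHA the same 5 blocks had log2 ratios of -0.13, -0.19, -0.23, -0.32 and -0.34 relative to WT LPS cultures. In block 1 the libraries were at 52.8 and 48.2 CPM with SAHA and 54.5 and 56.2 CPM with LPS alone. In block 5 they were at 99.9 and 117 CPM with SAHA, against 132 and 143 CPM. The groups did not overlap in either. The difference between the distal and the proximal of 3 parts, as a log2 ratio, lay between -0.26 and -0.06 when each of these 4 libraries was left out in turn.

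**Figure D3:**
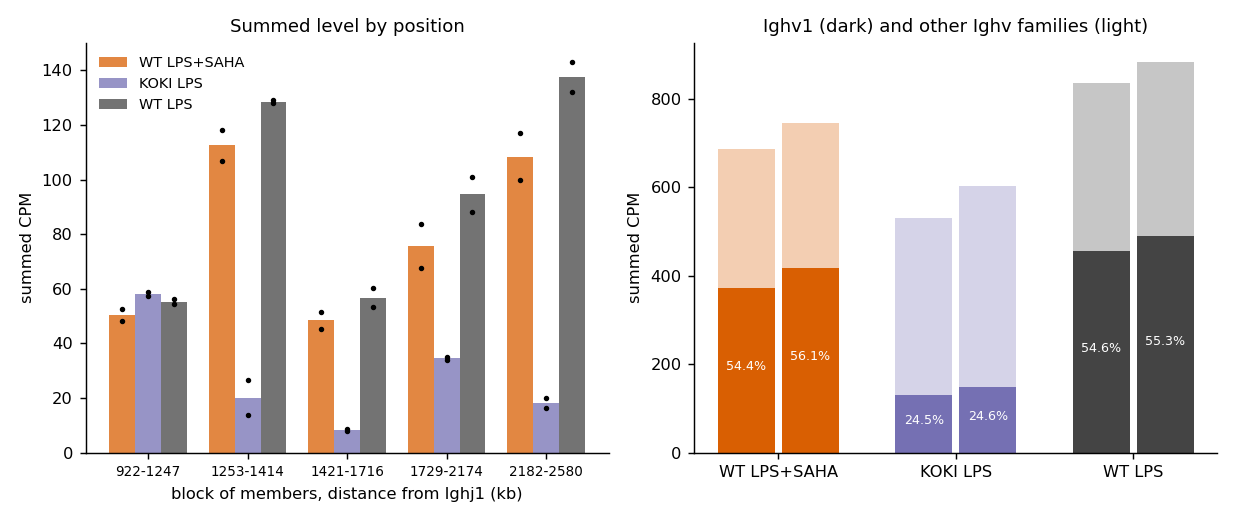
Left, summed CPM of the Ighv1 members in 5 groups ordered by distance from Ighj1, with bars for the mean and dots for the 2 libraries of each group. Right, summed CPM of Ighv1 (dark) and of the other heavy chain V families (light) per splenic library, with the share of Ighv1 printed. KOKI bars are close to WT LPS bars in the block nearest the D segments, at 58.0 and 55.3 CPM, and are lower in the 4 others.

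The order of the members by level was much alike with SAHA and with LPS alone and less alike in KOKI. Over the 92 members, Spearman's rho of CPM was 0.942 to 0.959 between SAHA and WT LPS libraries, 0.671 to 0.715 between KOKI and WT LPS libraries, and 0.946, 0.896 and 0.967 between the replicates of SAHA, KOKI and WT LPS. Members at 0 in all 10 libraries, 17 in number and 16 of them pseudogenes, are included in these values. Per kb of counted exon, the SAHA and WT LPS cultures shared 9 of their 10 leading members, and the KOKI and WT LPS cultures shared 4, namely Ighv1-9, Ighv1-53, Ighv1-26 and Ighv1-18. The KOKI cultures were led by Ighv1-9 with 69.0 ± 3.53 CPM per kb, Ighv1-14 with 28.5 ± 2.35 and Ighv1-54 with 27.4 ± 0.358. The WT LPS cultures were led by Ighv1-26 with 195 ± 13.2 CPM per kb, Ighv1-82 with 78.3 ± 4.68 and Ighv1-53 with 64.4 ± 9.67 (SD, n = 2 each).

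Use was also more uneven in KOKI. The 10 most abundant members took 64.3% of Ighv1 counts in each KOKI library, against 55.4% and 54.6% with SAHA and 55.2% and 57.1% in WT LPS cultures. The effective number of members, 1 over the sum of their squared shares, was 15.5 and 16.2 in KOKI, 20.3 and 22.0 with SAHA, and 21 and 20.2 in WT LPS cultures. Pseudogenes took 10.6% and 12.1% of Ighv1 counts in KOKI, against 1.06% and 0.969% with SAHA and 1.07% and 1.27% in WT LPS cultures. Most of that was Ighv1-14, without which the KOKI shares were 2.30% and 3.90%.

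Other V families in the same array lay above the WT LPS level in some cases and below it in others in KOKI. Of the 14 with counts, 5 had both KOKI libraries above both WT LPS libraries (Ighv2, Ighv3, Ighv5, Ighv7 and Ighv9), 5 had both below (Ighv6, Ighv8, Ighv11, Ighv12 and Ighv13) and 4 overlapped. The summed level of Ighv3 was 66.9 and 83.9 CPM in KOKI, against 42.8 and 41.1 CPM in WT LPS cultures. That higher sum rests on the pseudogene Ighv3-2, with 823 and 838 counts in KOKI, against 21 and 9 in WT LPS cultures. Without Ighv3-2 the family was not higher in KOKI. Ighv8, whose segments lie among those of Ighv1, had 19.7 and 23.2 CPM in KOKI, against 37.2 and 41.2 CPM in WT LPS cultures. The log2 ratios of the 5 lower families ran from -1.87 (Ighv13) to -0.87 (Ighv8), beside -1.76 for Ighv1. Those of the 5 higher families ran from 0.23 (Ighv5) to 0.85 (Ighv3). Segment by segment, 7 of the 52 other Ighv segments tested rose and 9 fell, with a median log2 fold change of 0.03, beside 1 rising and 29 falling in Ighv1. The difference between the families was not tested. With SAHA, 0 of the 14 families lay above WT LPS cultures and 9 lay below.

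Set against WT cultures with SAHA, the treatment their label names, the KOKI cultures gave a like picture. Of 52 members tested, 34 fell and 4 rose (edgeR adjusted p under 0.05), and 23.7% of all genes tested were called in this comparison, 14.1% higher and 9.64% lower. The median was -2.15, beside -0.03 over all genes. In 39 members both KOKI libraries lay below both SAHA libraries, in 11 above, and over all genes 34.4% lay below and 26.8% above. The 4 that rose were Ighv1-14, Ighv1-37, Ighv1-67 and Ighv1-4, with log2 fold changes of 6.83, 4.75, 2.21 and 1.36. Ighv1-4 had 7.78 and 8.86 CPM in KOKI, against 3.91 and 2.73 CPM with SAHA. Ighv1-31, Ighv1-49, Ighv1-13 and Ighv1-62-3, at 0 in both KOKI libraries, passed the test here and were at least 10.2-, 12.8-, 5.67- and 7.56-fold lower than with SAHA. These 2 comparisons share the KOKI libraries. With KOKI replicate 1 left out, the median log2 fold change of the members was -1.89, beside -0.09 over all genes.

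In the femoral pools the family was close to its counting limit. Ighv1 segments held 34 counts in the KOKI pool lacking RAG2 and gamma c and 54 in the KOKI pool lacking RAG2 alone, against 112 and 69 in the control pools. That is 1.61 and 2.34 CPM in KOKI, against 3.83 and 2.35 CPM in control pools. The lowest control pool and the higher KOKI pool nearly coincide. The share of Ighv1 in all Ighv counts was 87.2% (exact binomial 95% interval 72.6 to 95.7) and 85.7% (74.6 to 93.3) in KOKI, and 77.8% (70.1 to 84.3) and 75% (64.9 to 83.4) in control pools, with intervals that overlap. With GENCODE's functional members alone, the log2 ratio of the summed level turned from -0.65 to 0.13.

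Few members were detected, and their counts differed between the pools. Ighv1-41, a pseudogene, had 7 and 0 counts in KOKI, against 50 and 39 in control pools, where it held 44.6% and 56.5% of Ighv1 counts. It was the only member that passed the filter on low counts, its log2 fold change was -3.05 ± 1.09 (SE) and its edgeR adjusted p was 0.243. Both KOKI pools lay below both control pools, as they did for 35.4% of all genes tested. So 0 of 1 members tested were called, as were 0.0301% of all genes, with 1 member at an unadjusted p under 0.05 and 0 called by DESeq2. In the splenic cultures Ighv1-41 had 0 to 11 counts per library.

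Ighv1-29, which resembles Ighv1-41 in the sequences shown above, had 3 and 13 counts in the KOKI pools and 0 in both control pools, and 0 in all 6 splenic libraries. Ighv1-77 had the highest sum over the KOKI pools, with 7 and 13 counts, against 8 and 0 in control pools. In each KOKI pool alone it was level with another member, Ighv1-41 at 7 counts and Ighv1-29 at 13. Ighv1-84 had 3 and 8 counts in KOKI pools and 0 in both controls, and Ighv1-73 had 0 in both KOKI pools and 6 and 9 in controls. Ighv1-64 had 1 and 0 counts in KOKI pools and 9 and 7 in controls. Altogether 24 members had a count in a femoral pool. Of these, 6 had at least 3 counts over the KOKI pools and 0 in the controls (Ighv1-29, Ighv1-39, Ighv1-63, Ighv1-66, Ighv1-67 and Ighv1-84), and 6 had at least 3 over the controls and 0 in KOKI (Ighv1-42, Ighv1-53, Ighv1-54, Ighv1-56, Ighv1-73 and Ighv1-74). That is 25.0% of the 24 each way, whereas of all 24989 genes with a count in a femoral pool 3.06% met the rule for KOKI and 4.37% that for the controls. Among genes with 3 to 96 counts over the 4 pools, the range of the members, these shares were 35.3% each way for 17 members and 8.83% and 12.6% for all 8648 genes. A count of 0 over a pair of pools allows up to 3 counts, so members with few counts cannot be placed in either set with certainty. No count fell on the first 18 members in any femoral pool.

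**Figure D4:**
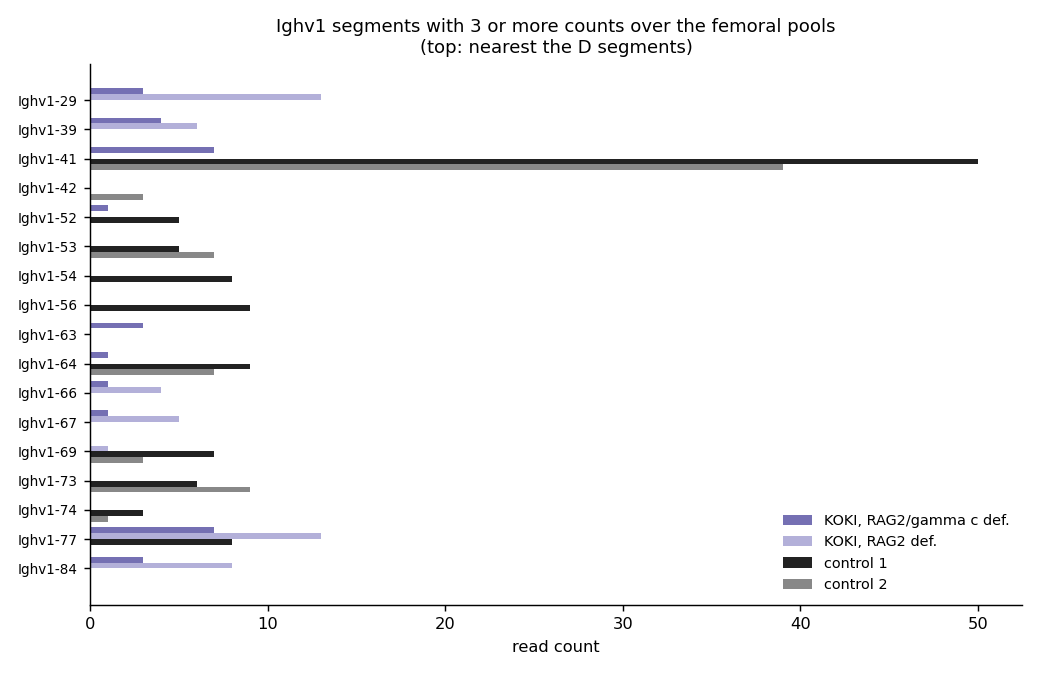
Read counts of the Ighv1 members with at least 3 counts over the 4 femoral pools, ordered from nearest the D segments (top) to farthest. Ighv1-41 reaches 50 and 39 counts in the control pools and 7 and 0 in the KOKI pools, and no other member exceeds 13 counts.

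Set against the femoral control pools, the WT LPS cultures had far more Ighv1 RNA, 456 and 489 CPM against 3.83 and 2.35 CPM. Tissue, cell composition, recombination and culture all differ between them, so this describes the preparations. Of 63 members tested, 52 were higher (edgeR adjusted p under 0.05), and over all genes 42.4% were called, 21.1% higher. In the fit of the femoral libraries alone 1 member passed the filter on low counts, so most of the 63 entered through their splenic counts. The counts of higher members are thus in part set by the filter. Both WT LPS libraries lay above both control pools in 55 members and below in 2, against 25.7% and 45.2% of all genes. Ighv1-26, at 0 in both control pools, was at least 1340-fold higher, and Ighv1-82 at least 592-fold. The members highest in control pools did not move as 1 set. Ighv1-41 had 11 and 0 counts in WT LPS cultures and 50 and 39 in control pools, and Ighv1-73 had 0 and 0 against 6 and 9, and neither passed the test (edgeR adjusted p = 0.218 and 0.0713). Ighv1-64, second in the control pools, had 571 and 671 counts in WT LPS cultures and 9 and 7 in control pools, and Ighv1-53 had 536 and 731 against 5 and 7. Both were higher in WT LPS cultures, with log2 fold changes of 6.68 ± 0.34 and 7.11 ± 0.38 (SE, edgeR adjusted p = 4.17e-08 and 5.35e-08). With members at 0 set to their bound the median log2 fold change was 6.06, beside -0.02 over all genes. Scaled to the summed Ighv counts, which moves the median of all genes to -8.18, 8 members were higher and 4 lower, beside 0.332% and 93.7% of all genes.

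The KOKI difference in spleen was also tested against that in the femur. Of 63 members, 1 passed, Ighv1-39 (1.59%, edgeR adjusted p = 0.0303), lower, and 0.846% of all genes did, 0.431% lower, so the members' share was near that of all genes. Ighv1-39 had 0 and 10 counts in KOKI cultures and 315 and 366 in WT LPS cultures, against 4 and 6 in femoral KOKI pools and 0 and 0 in femoral control pools. Its direction thus differed between spleen and femur, although the femoral counts are near the limit of 3. The call was lost, with 0 members passing, when either WT LPS library, either femoral KOKI pool or femoral control 1 was left out, and there were 2 calls without femoral control 2.

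Genes that act on V segment transcription or recombination were looked at in the same cultures. The list held 17 such genes, 14 of them tested in spleen. In KOKI over WT LPS 1 rose (7.14%) and 0 fell, beside 4.08% called over all genes. It was Pou2af1, the B cell coactivator of octamer-binding factors, with 524 and 569 CPM in KOKI, against 241 and 285 CPM in WT LPS cultures (log2 fold change 1.03 ± 0.17, edgeR adjusted p = 0.0144). With SAHA 0 rose and 1 fell, beside 4.64% called over all genes. It was Ezh2, a histone methyltransferase needed for distal V segment rearrangement, with 108 and 140 CPM with SAHA and 195 and 169 CPM with LPS alone (log2 fold change -0.65 ± 0.15, edgeR adjusted p = 0.0469). Pax5, Yy1 and Ctcf had log2 fold changes of -0.20, 0.06 and 0.12 in KOKI over WT LPS and did not pass the test. In KOKI over WT LPS+SAHA 4 rose, Pou2af1, Ezh2, Rad21 and Ctcf, and 4 fell, Pax5, Ebf1, Stat5a and Il7r (edgeR adjusted p of 0.00268 to 0.033). That is 57.1% of the 14, beside 23.7% called over all genes. Rad21, a cohesin subunit, had 166 and 184 CPM in KOKI, against 85.4 and 118 CPM with SAHA, and Pax5, the B cell identity factor, had 252 and 260 against 387 and 465 CPM. Their log2 fold changes were 0.86 ± 0.14 and -0.67 ± 0.16 (SE). In the femoral pools 15 of the 17 were tested and 0 were called by edgeR.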

How the data were processed

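The authors deposited 1 table of raw read counts per gene, not normalised, for 10 libraries, and no further per-sample column was present (0). Per the submitters' processing notes, reads were handled with STAR 2.4.0a and featureCounts of Subread 1.4.6-p1 on mm10 (GRCm38). Per the labels' protocols, libraries were made with the TruSeq Stranded Total RNA kit. Strand and multi-mapping settings: not given in the sources used here. The 100 spike-in entries were left out.

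CPM were computed here with the total counts as divisor. Tests used edgeR 4.0.16 in R 4.3.3: TMM, filterByExpr (minimum count 10, minimum total 15), quasi-likelihood F test and Benjamini-Hochberg adjustment over all genes tested, with adjusted p under 0.05 as the threshold. The splenic comparisons came from 1 fit of 6 libraries, the femoral one from 4, and the comparisons across tissues from all 10 in 6 groups. DESeq2 1.42.0, other scalings, filters, sample sets and left-out replicates were alternatives. The code was tested on simulated data. A count of 0 over a group was taken to allow 3 counts. Distances run from Ighj1. Members were split by position into 3 and 5 groups of near-equal number. V exons were compared over GENCODE M21 transcripts. Named members were those called (at most 10 each way per comparison), the extremes of each comparison, the 10 highest in spleen, the 6 highest in femur and both ends of the array; others named were chosen after their values were seen. Members and lists were chosen with earlier results of these data known. Replicates were no copies of each other (chi-square per degree of freedom 92.6 to 161), nor were the femoral KOKI pools, which differ in genotype (44.1).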

Additional observations from a re-analysis of the deposited data

Results flagged for a closer look

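Ighv1-39 stands out because the KOKI difference in spleen and that in the femur differed by the test of the difference itself. The fitted interaction was -11.12 on the log2 scale (edgeR adjusted p = 0.0303), which is no bound because both femoral control pools were at 0. It was the only 1 of 63 members to pass in this fit (1.59%, beside 0.846% of all genes), while DESeq2 called 6 (9.52%, beside 2.69% of all genes). The edgeR call was lost when either WT LPS library, either femoral KOKI pool or femoral control 1 was left out. Ighv1-73 and Ighv1-77 also moved in opposite directions in spleen and femur without passing (edgeR adjusted p = 0.137 and 0.208).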

How the results depend on the processing

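Alternatives that kept all compared libraries gave 25 to 43 called members in KOKI over WT LPS, beside 30. At these ends 421 of 20204 and 6685 of 15342 genes were called. In KOKI over WT LPS+SAHA such alternatives gave 28 to 39 members, beside 38. Over all genes, 2439 of 20204 were called at the lower end and 4183 to 4498 at the upper. With SAHA over WT LPS and all compared libraries kept, 1 of 74 members was called without the low-count filter (1.35%, beside 5.64% of all genes). With the replicate number as a block 5 of 49 were, all lower (10.2%, beside 14.5% of all genes lower). RLE scaling, DESeq2, all 10 libraries in 1 fit and scaling to summed Ighv counts called 0 members, beside 580, 1721, 211 and 1201 of all genes. With the compared libraries alone 0 of all 14961 genes passed, so the 0 members there decide nothing. The block gave 34 of 50 members in KOKI over WT LPS, beside 1313 of all 14392 genes, and 34 of 49 over WT LPS+SAHA, beside 4266 of 14464. It gave 46 of 49 for WT LPS over femoral control, beside 7009 of 16864. In KOKI over WT LPS the members called higher, 1 in the main fit, were 3 with DESeq2 and 3 with the block. They were 2 without the low-count filter and 9 when scaled to summed Ighv counts. Over all genes tested these settings called 577, 735, 594 and 6446 higher. The labels do not say what a shared number marks, and deviations of same-numbered libraries correlated at 0.221 (SAHA and WT LPS), 0.0579, 0.0539 and -0.0819. No paired analysis was possible because the femoral KOKI pools share fewer than 2 numbers with the controls, which also holds for the test of spleen against femur.

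Leaving out 1 library at a time left 1 library in a group, so effect sizes alone are given for these fits. The median log2 fold change of the members ran from -2.81 to -2.09 in KOKI over WT LPS. It ran from -2.57 to -1.77 over WT LPS+SAHA and from -0.37 to -0.28 with SAHA. Between spleen and femur DESeq2 gave 6 (9.52%, beside 2.69% of all genes), no low-count filter 2 and scaling to summed Ighv counts 0, and for WT LPS over femoral control that scaling gave 12. The summed level of Ighv1 had a log2 ratio of -0.34 to -0.18 with SAHA, -1.86 to -1.67 for KOKI over WT LPS, -1.61 to -1.41 over WT LPS+SAHA, -0.95 to -0.25 in the femur and 6.95 to 7.65 for WT LPS over femoral control. With TMM library sizes the SAHA value was -0.40. With functional members alone it was -1.92 for KOKI over WT LPS, 0.13 in the femur and 8.47 for WT LPS over femoral control, and 8.01 there without the most abundant member of each library. The distal minus the proximal log2 ratio ranged from -1.20 to -1.07 for KOKI over WT LPS, -1.08 to -0.88 over WT LPS+SAHA and -0.26 to -0.06 with SAHA. With 5 parts in place of 3 it was -2.98 over WT LPS and -2.77 over WT LPS+SAHA, and without the most abundant member of each part -1.26 over WT LPS. The 10 leading members took 66.25% of KOKI counts without pseudogenes, beside 64.3%. Ighv1-23, with at most 4 counts in these libraries, had a log2 fold change of 0.83 with SAHA and ranged from -3.54 to 1.87 when a library was left out, negative without SAHA replicate 1. The causes of these shifts were not tested. With 34 to 112 Ighv1 counts per femoral pool, the low counts limit what can be seen there.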
